A study of Mus musculus with 12 samples.

Results

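Hmox1, the gene of the inducible heme oxygenase, was the single oxidative stress defence gene of a set of 10 that was called as changed in either of 2 mouse models of endoplasmic reticulum (ER) stress, and it rose in both. The set held Hmox1, Nqo1, Gclc, Gclm, Gsr, Txnrd1, Txn1, Prdx1, Sod2 and Cat. Its members were found by gene name in the annotation of the array, with every probe of each gene kept. All 10 names were found, with 12 probes among the 41174 probes measured, since Gsr had 3 probes and each other gene had 1.

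The data are expression arrays of the hypertrophic zone of the tibial growth plate, the layer of cartilage in which chondrocytes swell before bone replaces them. There were 4 groups of 3 mice, all 14 days old. Schmid mice carried Col10a1 p.Asn617Lys, a collagen X mutation, and were homozygous according to the study's figure legends. Their controls were wildtype littermates, called wildtype (Schmid) here. Cog mice (ColXTgcog) carried a transgene that makes the misfolding cog form of thyroglobulin in the hypertrophic zone, and their wildtype littermates are called wildtype (Cog). Hemizygous and homozygous Cog mice were not told apart, according to the study. In Schmid the misfolded protein is the tissue's own collagen X, and in Cog it is foreign to cartilage, which sets the question of which genes each mutant shares with the other. A hypertrophic zone was cut by hand from 1 tibia of each mouse, and its RNA was amplified in a pair of rounds before labelling, so each of the 12 arrays stands for 1 mouse.

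Cells meet oxidants with several lines of defence. The transcription factor NRF2, made from Nfe2l2, is held low by KEAP1, and when oxidants or reactive chemicals modify KEAP1, NRF2 binds antioxidant response elements beside genes for glutathione synthesis, quinone reduction, thioredoxin recycling and heme breakdown. The repressor BACH1 competes for the same elements and leaves them when heme binds it. ER stress touches the same chemistry because oxidative protein folding makes hydrogen peroxide, and its PERK and ATF4 arm induces genes for cystine uptake and glutathione turnover. Hypertrophic chondrocytes work in a tissue without vessels that is later invaded by them.

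The antioxidant response element is shown first, since it is the sequence by which much of this set is known to be controlled. Windows of promoter sequence from RefSeq (GRCm38.p6, 250 bases before to 50 after a transcript's start) were held for 7 of the 10 genes, in 9 windows. Hmox1, Gclc and Gsr had no entry. The core TGACNNNGC, searched on both strands, was found in Gclm, Prdx1 and Txnrd1, and in 12.4% of all 32851 windows. In each of the stretches below, written 5′ to 3′ on the strand of the gene, capitals mark the match, which lies on the opposite strand.
Gclm, chr3:122245397-122245457: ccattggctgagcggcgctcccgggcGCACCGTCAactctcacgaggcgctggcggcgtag
Prdx1, chr4:116685440-116685500: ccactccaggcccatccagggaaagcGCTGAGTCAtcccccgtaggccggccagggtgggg
Txnrd1, chr10:82859088-82859148: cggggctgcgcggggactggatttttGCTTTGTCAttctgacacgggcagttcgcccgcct
The matches began 134, 133 and 92 bases before the transcript start of the window in Gclm, Prdx1 and Txnrd1. For Gclm that start lies inside the annotated span of the gene, so the match is nearer to the first base of the span. For Txnrd1 the start is 1 of 3 and also lies inside the annotated span of the gene. The match in Prdx1 overlaps TGAGTCA, the site of the AP-1 factors, which 5.2% of all windows hold. The core TGATGNAA of sites for ATF4 with a C/EBP partner, also searched on both strands, was in none of the 9 windows and in 3.97% of all windows. A match describes letters in a window and does not show that a factor binds there. None of these 3 genes was called in either mutant.

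Values below are log2 signals after normalization, in which a difference of 1 is a 2-fold difference, and a level of one gene cannot be set against that of another because probes differ in brightness. A gene was called as changed when limma's test over all probes gave an adjusted p of 0.05 or less and the fold change was at least 2. For Gsr the brightest probe stands for the gene unless another is named. Of the 12 member probes, 10 were well above background on all 12 arrays. The exceptions were the probe of Gclm, on 1 of 12 arrays, and the dimmest probe of Gsr, on 8 of 12.

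In Schmid, 1 of the 10 genes was called, Hmox1, against 11.5% of the 27962 gene names on the array. In Cog it was again 1 of 10, Hmox1, against 2.73%. In both mutants it was higher, as were 5.8% and 1.89% of all gene names. In a list this short a single call moves the share by 10 percentage points, so these counts do not set the list apart from the rest of the array. The median log2 difference of the 10 genes was 0.45 in Schmid, beside -0.087 over all gene names, and 0.029 in Cog, beside -0.0031. In Schmid 7 genes had a positive difference and 3 a negative one, and in Cog there were 5 of each. Every Schmid array exceeded every wildtype (Schmid) array for Hmox1, Nqo1, Gclm and Txnrd1, and lay below it for Gsr. Such separation upwards held for 18.7% of all gene names in Schmid, and downwards for 27.7%. All 3 Cog arrays lay above their wildtype for Hmox1 and Gclm (17.2% of all gene names) and below it for Nqo1 and Gsr (13.3%).

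**Figure D1:**
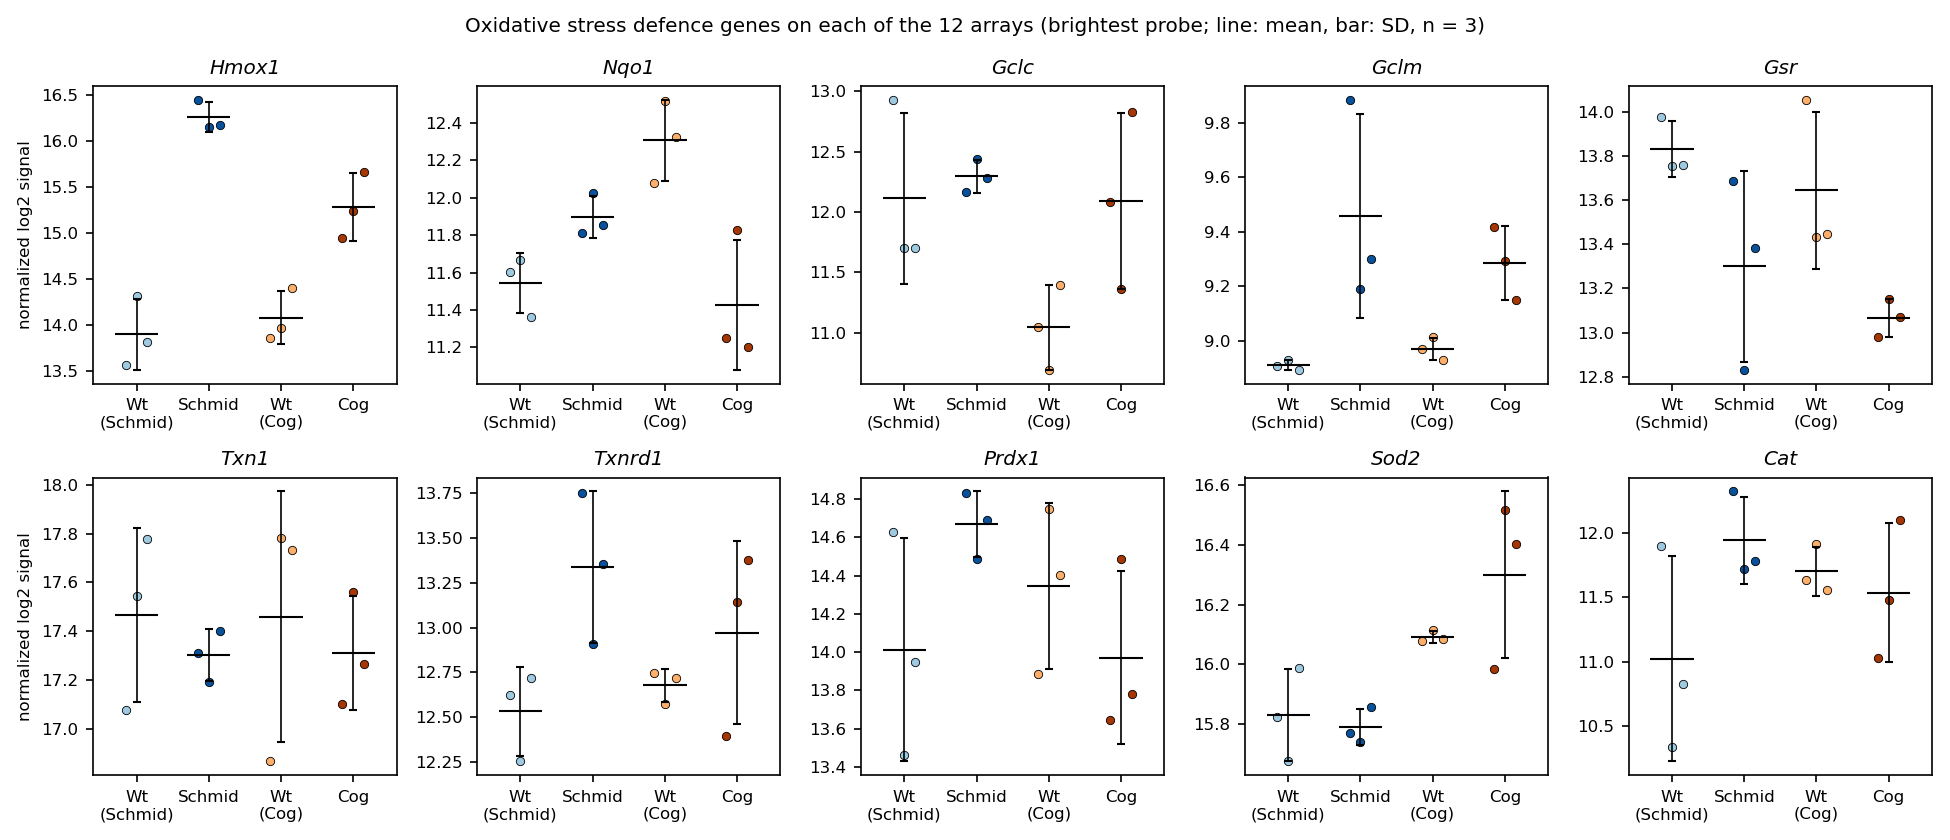
Normalized log2 signal (vertical axis, its range set for each gene) of the 10 genes on each of the 12 arrays, 3 points per group, with the group mean as a line and the SD as a bar. The Hmox1 points of both mutants lie above those of their wildtype mice (Schmid mean 16.26 against 13.89, Cog 15.28 against 14.07), while each mutant overlaps its wildtype for Txn1, Prdx1, Sod2 and Cat.

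Hmox1 (NM_010442; chr8:75093618-75100593, GRCm38.p6) codes for heme oxygenase 1, which cuts heme into biliverdin, iron and carbon monoxide and is among the most strongly induced genes of the oxidative stress response. Its log2 signal was 16.45, 16.15 and 16.17 on the Schmid arrays and 13.56, 14.32 and 13.81 on the wildtype (Schmid) arrays. It was 14.94, 15.24 and 15.66 on the Cog arrays and 13.86, 13.97 and 14.40 on the wildtype (Cog) arrays. Every mutant array was above every wildtype array of either background, and the 3 Schmid arrays were also above the 3 Cog arrays. The difference was 2.36 on the log2 scale in Schmid (SE 0.24, adjusted p = 0.00025), with a 95% interval of 3.56-fold to 7.43-fold. In Cog it was 1.20 (SE 0.24, adjusted p = 0.023), with an interval of 1.60-fold to 3.33-fold. The wildtype groups differed by 0.18 (adjusted p = 0.82).

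Set against each other, the rises of Hmox1 differed by 1.16 on the log2 scale, Schmid having the larger (adjusted p = 0.042). The Schmid call held in all 25 alternative treatments of the data, with log2 differences of 2.19 to 2.99. Among these, the alternative with no fold limit could not take a call away. In Cog the difference stayed between 0.83 and 1.38, and 7 of 25 alternatives took the call away. The highest adjusted p was 0.31, with the processed signal at the 75th percentile, followed by 0.097 with normexp values at that percentile, and the Cog groups fitted alone gave 0.071. Leaving out Cog replicate 2 gave an adjusted p of 0.055, Cog replicate 3 gave 0.064, wildtype (Cog) replicate 1 gave 0.054 and replicate 2 gave 0.092. The difference between the mutants was no longer called in 10 of 24 alternatives, with adjusted p of up to 0.094, of which 9 left out a single array. The exceptions among the arrays were wildtype (Schmid) replicate 2, Cog replicate 3 and wildtype (Cog) replicate 1, without which it was still called.

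Mutant mice and their littermates were hybridized on different slides. The Schmid arrays filled 1 slide and the wildtype (Cog) arrays another, while of the wildtype (Schmid) arrays 2 lay together and 1 lay beside the Cog arrays. In each mutant's comparison with its own wildtype, for Hmox1 as for every other gene, the slide and the genotype therefore cannot be told apart. The wildtype groups shared no slide either, so slide and background cannot be told apart between them. The difference between the mutants' effects carries the same limit. On the slide that holds both kinds of mice, the Hmox1 signal was 13.81 on the wildtype (Schmid) array and 14.94 to 15.66 on the Cog arrays, a comparison across backgrounds with 1 wildtype mouse and no test. The Hmox1 probe lies in row 7 of the array's 532 rows, where a smooth trend of signal over the rows was 0.31 lower on the Schmid arrays than on their wildtype arrays. The Schmid arrays also had a lower background, with median signals of negative control spots of 202 to 617 against 977 to 1894 on the other arrays. Their shares of spots well above background were 61.2, 58.9 and 61.8%, of which 61.2 and 61.8% exceeded every other array (39.6 to 59.4%). The part of these array properties in the rise of Hmox1 was not tested beyond the alternatives given here; with the trend over the rows removed it stayed called in Schmid.

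Red cells carry heme and macrophages, which clear them, can express Hmox1, and the markers of both were not level between the groups. Of the 6 red cell markers on the array, 3 were called lower in Schmid and none in Cog, with log2 differences of -4.07 for Hbb-b1, -3.47 for Hba-a1 and -3.45 for Alas2. Their summed signal was 25500 to 68700 on the Schmid arrays and 253000 to 983000 on the wildtype (Schmid) arrays, and 99500 to 291000 on the Cog arrays beside 150000 to 306000. Of the 6 macrophage markers, Lyz2 (log2 difference of -2.39) and Csf1r (-1.72) were lower in Schmid and none was called in Cog. The summed signal of the 6 was 16600 to 25900 on the Schmid arrays and 32500 to 146000 on the wildtype (Schmid) arrays. It was 44300 to 88100 on the Cog arrays and 28100 to 49700 on the wildtype (Cog) arrays. The brightest probe weighs most in such a sum, and Lyz2 had the highest mean log2 signal, 15.47 in Cog and 14.04 in wildtype (Cog). In Cog the log2 differences were 1.43 for Lyz2, 0.44 for Adgre1 and 0.27 for Marco. They were -1.04 for Csf1r, -0.997 for Cd68 and -0.27 for Cd14, and the median of the 6 was -0.0018. Of the 6 endothelial markers, Kdr, Emcn and Cdh5 fell in Schmid while Vwf rose, and none was called in Cog. Of 6 osteoclast markers only Mmp9 was called in Schmid, and of 5 osteoblast markers only Col1a1, both lower. The study lists Mmp9 among markers of hypertrophic cartilage. None of 7 neutrophil markers was called, their summed signal being 5620 to 43400 in Schmid, 8720 to 429000 in wildtype (Schmid), 22900 to 124000 in Cog and 11400 to 16200 in wildtype (Cog). Their part in the rise of Hmox1 was not tested. In such bulk tissue, fewer cells of a type and less RNA per cell cannot be told apart.

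Markers of the labelled tissue were present. All 6 chondrocyte markers, Col2a1 among them, were above background in every group and none was called in either mutant, and Col10a1, the collagen of hypertrophic cells, gave a log2 difference of -0.016 in Schmid (adjusted p = 0.99), while in Cog it was 0.996 (adjusted p = 0.39). Of the 6 hypertrophic markers, Ihh and Alpl were called lower in Schmid and Ihh in Cog.

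Over the 12 arrays, the genes whose signal ran most like that of Hmox1, among 10416 genes well above background on every array, were Zfand2a (Pearson r of 0.979), Srxn1 (0.973) and Flnc (0.972). Zfand2a is a partner of the proteasome known from arsenite exposure, Srxn1 codes for sulfiredoxin and Flnc for an actin crosslinker. These correlations follow the differences between groups and share the same arrays, so they are a description. The log2 differences in Schmid and Cog were 1.56 and 0.84 for Zfand2a, 1.94 and 0.63 for Srxn1 and 3.74 and 1.77 for Flnc.

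Nqo1 (NM_008706; chr8:107388225-107403205) codes for a reductase that turns quinones into hydroquinones without passing through reactive radicals, and it is the textbook target of NRF2. Its log2 signal was 11.81, 12.03 and 11.85 in Schmid and 11.60, 11.67 and 11.36 in wildtype (Schmid). It was 11.25, 11.83 and 11.20 in Cog and 12.08, 12.52 and 12.32 in wildtype (Cog). The Schmid arrays were all above their wildtype arrays, and the Cog arrays were all below theirs. For Schmid this made a log2 difference of 0.35 (SE 0.18, adjusted p = 0.18). In Cog it was -0.88 (SE 0.18, adjusted p = 0.027), past the test but under 2-fold, so it was not called. Nqo1 and Hmox1 were the 2 of 10 genes past the test in Cog whatever the fold, against 5.25% of all gene names. The difference between the mutants, 1.23 on the log2 scale, was called (adjusted p = 0.011). With Hmox1, Nqo1 made up the 2 of 10 genes whose response was called as different between the mutants, against 11.4% of all gene names.

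The control arrays carry weight in the result for Nqo1. Wildtype (Cog) lay above wildtype (Schmid) on all arrays, by 0.76 on the log2 scale (95% interval 0.36 to 1.17, adjusted p = 0.086), and the Cog arrays lay near the wildtype (Schmid) arrays (means of 11.43 and 11.54). Of 24 alternatives, 1 took away the difference between the mutants, the scanner's processed signal set to a common 75th percentile (adjusted p = 0.096). Without Cog replicate 2, the Cog array with the highest Nqo1 signal, the log2 difference in Cog was -1.08 and Nqo1 was called there (adjusted p = 0.015).

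**Figure D2:**
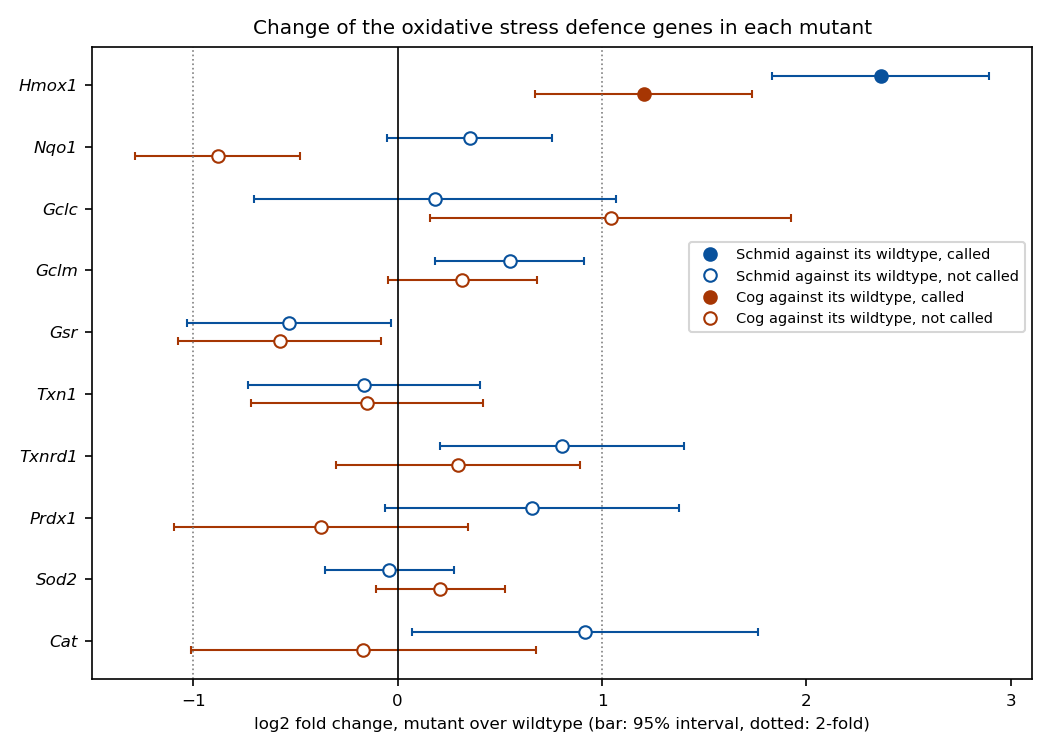
Log2 fold change of each mutant over its own wildtype (horizontal axis) for the 10 genes, with 95% intervals as bars, filled points for called genes and dotted lines at 2-fold. Hmox1 is the only gene with filled points, and the intervals of Nqo1 for the 2 mutants, -0.053 to 0.76 in Schmid and -1.28 to -0.48 in Cog, do not overlap.

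Glutathione, the main small thiol of the cell, is made by glutamate-cysteine ligase and then glutathione synthetase. Gclc (NM_010295; chr9:77754535-77794489) codes for the catalytic subunit of the ligase. Its log2 signal was 12.17, 12.44 and 12.28 in Schmid, and 12.93, 11.70 and 11.70 in wildtype (Schmid), where replicate 1 stood above every Schmid array. It was 12.08, 11.37 and 12.82 in Cog and 11.05, 10.69 and 11.40 in wildtype (Cog). The Cog and wildtype (Cog) arrays overlapped narrowly. For Gclc the log2 difference was 0.18 in Schmid (adjusted p = 0.76, 95% interval -0.70 to 1.07) and 1.04 in Cog (adjusted p = 0.17, interval 0.16 to 1.93). Neither was called, and these intervals leave room for changes of 2-fold in either mutant. The wildtype groups differed by as much as Cog and its wildtype did, -1.07 (adjusted p = 0.26), wildtype (Cog) being the lower.

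Gclm (NM_008129; chr3:122245487-122267215) codes for the modifier subunit, which lowers the amount of substrate the ligase needs. Its signal was near background, with log2 values of 9.88, 9.19 and 9.30 in Schmid against 8.91, 8.93 and 8.89 in wildtype (Schmid), and 9.42, 9.29 and 9.15 in Cog against 8.97, 9.01 and 8.93 in wildtype (Cog). Both mutants lay wholly above their wildtype arrays. Only 1 of the 12 arrays put Gclm well above background. The log2 difference was 0.55 in Schmid (SE 0.16, adjusted p = 0.037), under 2-fold and so not called, and 0.32 in Cog (adjusted p = 0.30). With a signal this near to background the value moved with the settings, to 1.86 with the processed signal at the 75th percentile (adjusted p = 0.058), 0.036 with normexp values at the 75th percentile (adjusted p = 0.94) and 0.33 without Schmid replicate 1 (adjusted p = 0.076). As fitted, Gclm and Hmox1 were the 2 of 10 genes with an adjusted p of 0.05 or less in Schmid, whatever the fold, against 25.2% of all gene names.

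The probes of Gclm and of Prdx1 are shown because they are the members' only probes whose annotated position, in the mm7 build of the array's design, spans an intron, so that they match spliced RNA. Both are written 5′ to 3′ as on the array.
Gclm probe, chr3:122027477-122030112: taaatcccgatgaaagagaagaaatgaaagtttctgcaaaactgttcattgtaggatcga
Prdx1 probe, chr4:116069412-116070182: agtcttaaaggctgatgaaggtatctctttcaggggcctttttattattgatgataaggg

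Gsr (NM_010344; chr8:33653238-33698162) codes for glutathione reductase, which returns oxidized glutathione to its working form with NADPH. At the brightest probe, log2 signals were 13.69, 12.83 and 13.38 in Schmid against 13.98, 13.76 and 13.76 in wildtype (Schmid), and 12.98, 13.15 and 13.07 in Cog against 14.06, 13.43 and 13.44 in wildtype (Cog). Both mutants lay wholly below their wildtype arrays, Gsr being the only member to do so in both. The log2 difference was -0.53 in Schmid (SE 0.22, adjusted p = 0.11) and -0.58 in Cog (SE 0.22, adjusted p = 0.17), and neither was called. The 2 other probes differed in what they showed. One shares 39 bases with the brightest probe. For Schmid it gave -0.58 (adjusted p = 0.12), and for Cog -0.90 (adjusted p = 0.077). The other shares none and was well above background on 8 of 12 arrays. It gave 0.73 for Schmid (adjusted p = 0.29), but -1.11 for Cog (adjusted p = 0.22), so the probes parted in sign in Schmid and not in Cog.

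**Figure D3:**
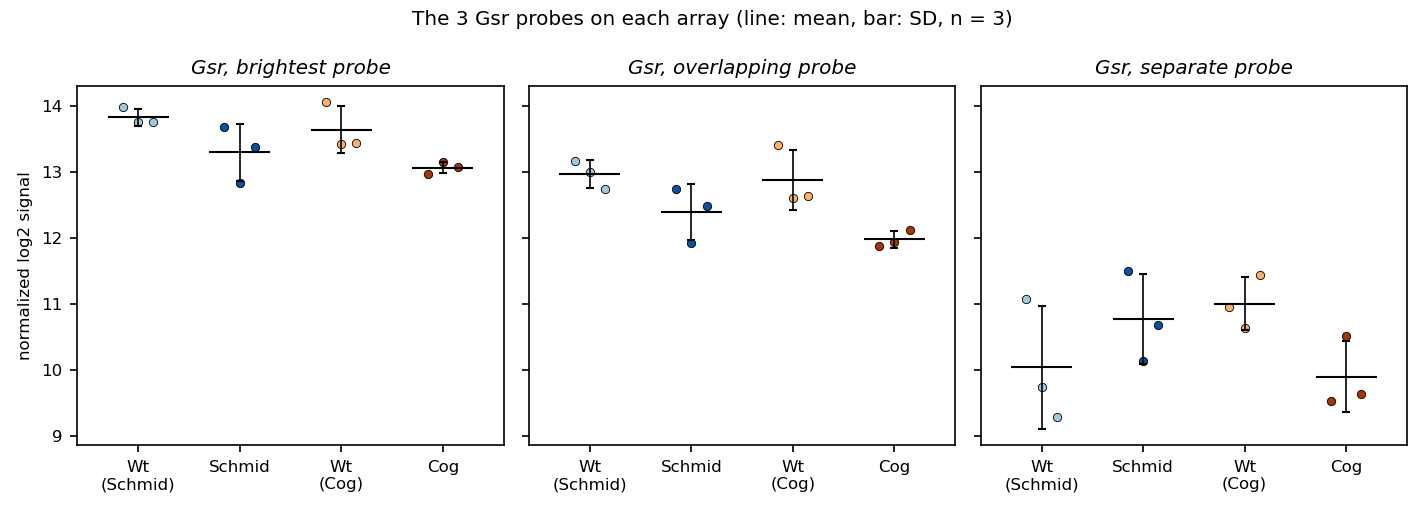
Normalized log2 signal (vertical axis) of the 3 Gsr probes on each of the 12 arrays, 3 points per group, with the mean as a line and the SD as a bar. The Cog points lie below the wildtype (Cog) points at each of the 3 probes, while the Schmid points lie below theirs at the brightest probe and overlap them at the others.

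The thioredoxin system reduces disulfides in proteins and feeds the peroxiredoxins, which break down hydrogen peroxide. Txn1 (NM_011660; chr4:57943373-57956411), thioredoxin itself, had log2 signals of 17.19 to 17.40 in Schmid, 17.08 to 17.78 in wildtype (Schmid), 17.10 to 17.56 in Cog and 16.87 to 17.78 in wildtype (Cog). The Schmid range lay inside its wildtype range, as did the Cog range. The log2 differences were -0.16 (95% interval -0.73 to 0.40, adjusted p = 0.67) and -0.15 (-0.72 to 0.42, adjusted p = 0.78), and both intervals stay within 2-fold. Their signs turned under some settings.

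Txnrd1 (NM_015762; chr10:82833951-82897724), the cytosolic thioredoxin reductase, had an adjusted p just past the limit in Schmid. Its log2 signal was 13.75, 12.91 and 13.36 in Schmid against 12.63, 12.25 and 12.72 in wildtype (Schmid), a separation without overlap. It was 12.40, 13.14 and 13.37 in Cog against 12.74, 12.57 and 12.72 in wildtype (Cog), where Cog replicate 1 lay below all 3 wildtype arrays and the other Cog arrays above them. The log2 difference was 0.81 in Schmid (SE 0.27, adjusted p = 0.053) and 0.29 in Cog (SE 0.27, adjusted p = 0.57). In 4 of 25 alternatives Txnrd1 was called in Schmid, at log2 differences of 1.02 to 1.08. These were background-corrected values set to a common 75th percentile, the trend over the rows removed with and without that over probe GC content, and the fit without Schmid replicate 2. The difference between the mutants was 0.51 (95% interval -0.33 to 1.36, adjusted p = 0.38).

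Prdx1 (NM_011034; chr4:116685599-116700000), a cytosolic peroxiredoxin, had log2 signals of 14.83, 14.49 and 14.69 in Schmid against 14.63, 13.46 and 13.95 in wildtype (Schmid), and 13.64, 14.49 and 13.78 in Cog against 13.89, 14.75 and 14.40 in wildtype (Cog). The groups overlapped in both comparisons. Its log2 difference was 0.66 in Schmid (adjusted p = 0.16), beside -0.37 in Cog (adjusted p = 0.55). Between the mutants this made 1.03, not called (adjusted p = 0.15), but called with arrays weighted by quality and without wildtype (Schmid) replicate 1.

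Superoxide dismutase turns superoxide into hydrogen peroxide, and catalase turns that into water and oxygen. Sod2 (NM_013671; chr17:13007839-13018119), the mitochondrial dismutase, had the smallest SE of the set (0.14), with log2 signals of 15.74 to 15.86 in Schmid, 15.68 to 15.99 in wildtype (Schmid), 15.98 to 16.52 in Cog and 16.08 to 16.12 in wildtype (Cog). The log2 difference was -0.040 in Schmid (95% interval -0.36 to 0.28, adjusted p = 0.86) and 0.21 in Cog (-0.11 to 0.52, adjusted p = 0.44). Both intervals end well short of 2-fold.

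Cat (NM_009804; chr2:103453904-103485153), catalase, had log2 signals of 12.33, 11.72 and 11.78 in Schmid against 11.90, 10.34 and 10.83 in wildtype (Schmid), and 11.03, 11.48 and 12.10 in Cog against 11.64, 11.92 and 11.56 in wildtype (Cog). The log2 difference was 0.92 in Schmid (SE 0.38, adjusted p = 0.10), and -0.17 for Cog mice (adjusted p = 0.84). The first value moved both ways with single wildtype (Schmid) arrays. Without replicate 1, which lay at the level of the Schmid arrays, the log2 difference was 1.36 and Cat was called in Schmid (adjusted p = 0.011), and without replicate 2 it was 0.58 (adjusted p = 0.33). Replicate 1 was also the highest of its group for Gclc and Prdx1. Catalase is abundant in red cells, of whose 6 markers 3 fell in Schmid, and their part in the signal of Cat was not tested.

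Between the wildtype groups, 0 of the 10 genes were called by limma, against 0.554% of all gene names. Without adjustment, 2 of 10, Nqo1 and Gclc, had a p of 0.05 or less in that test, a limit whose share of all gene names was not computed. The count was 0 in all 25 alternatives. For Nqo1 all wildtype (Cog) arrays lay above all wildtype (Schmid) arrays, while Gclc was the reverse. Sod2 was separated upwards as well, at a log2 difference of 0.26 (adjusted p = 0.45). Of all gene names, 8.88% were separated upwards and 9.78% downwards.

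The wider defence was described through 71 other genes of the glutathione, thioredoxin, heme and quinone pathways and their regulators, of which 70 were on the array. In Schmid, 17 of 70 (24.3%) were called, against 11.5% of all gene names, with 12 higher, where 5.8% of all gene names were, and 5 lower, where 5.75% were. In Cog, 4 of 70 (5.71%) were called, against 2.73%, and all 4 were higher. The median log2 difference of the list was 0.14 in Schmid and -0.077 in Cog. This list was chosen with earlier results of these data known, and all gene names include those with dim probes. Shares of the list and of its roles above those of all gene names are therefore a description, and enrichment was not tested.

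**Figure D4:**
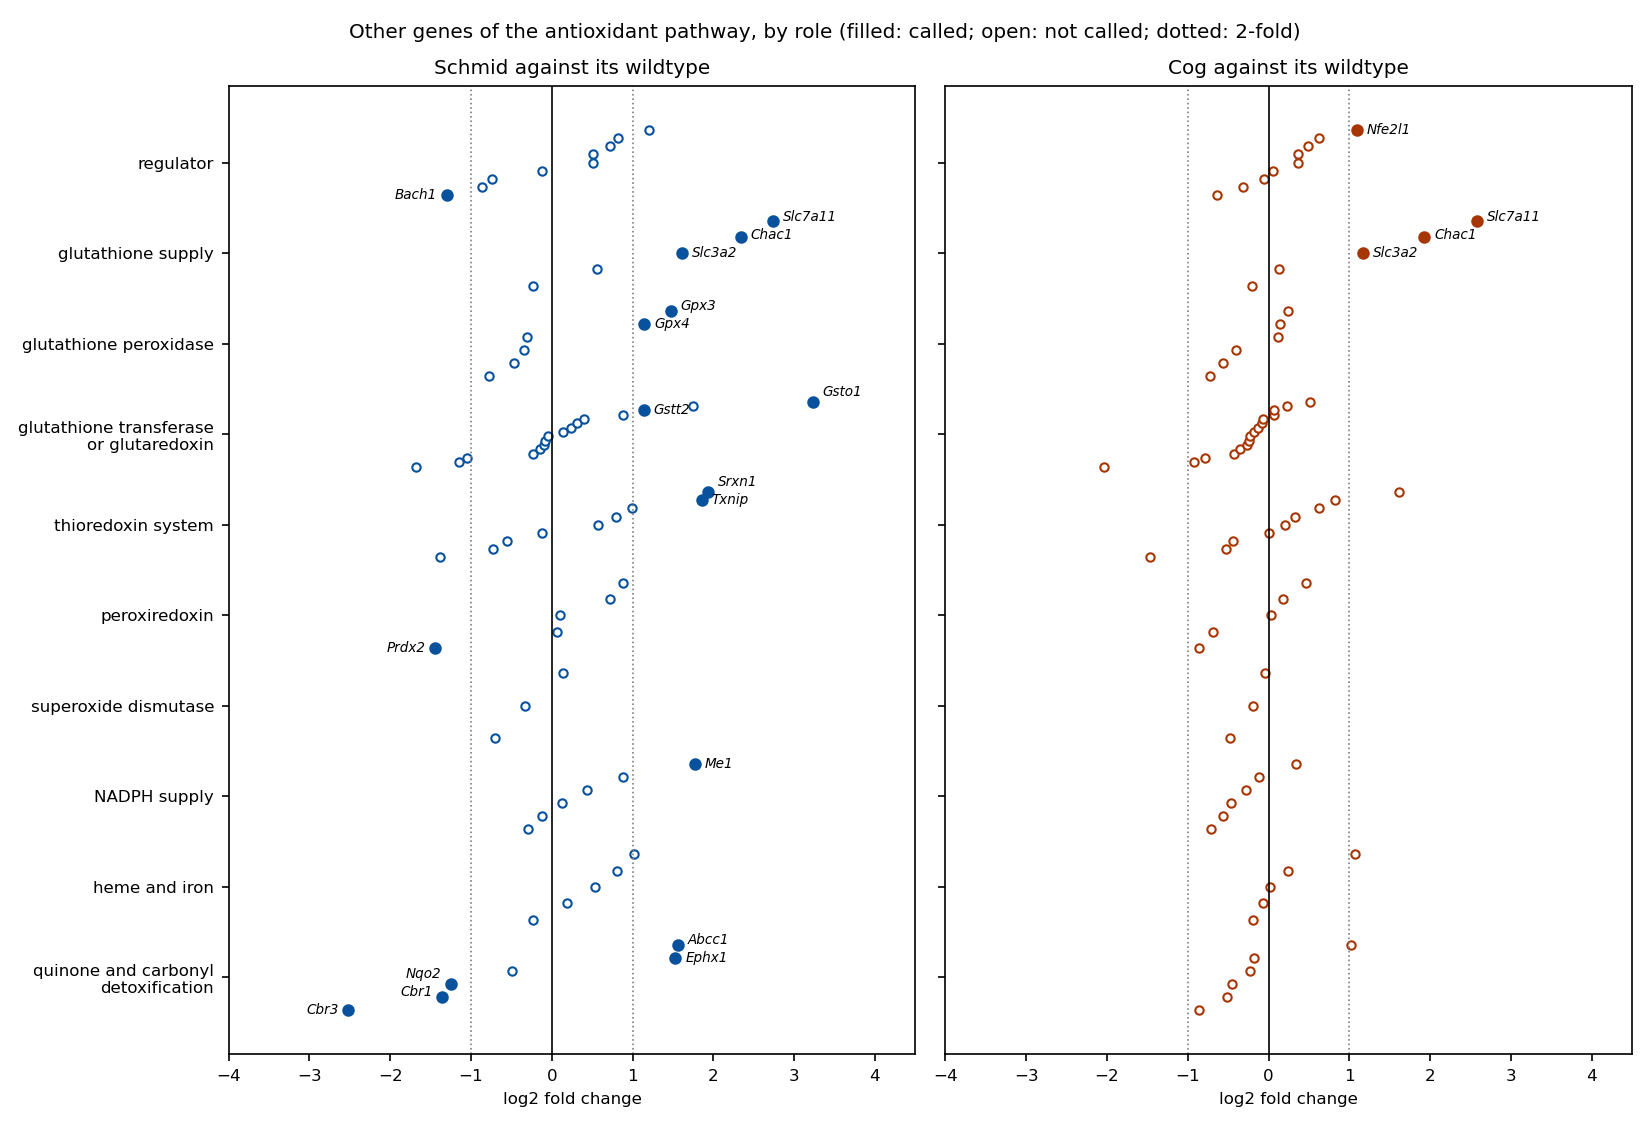
Log2 fold change (horizontal axis) of the 70 other pathway genes in each mutant over its wildtype, each point 1 gene, arranged by role and by size within a role, with called genes filled and named and dotted lines at 2-fold. The 3 named genes of the role labelled glutathione supply, Slc7a11, Slc3a2 and Chac1, which cleaves glutathione, are filled in both panels. The 5 genes called lower all lie in the Schmid panel.

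The regulators stood first in the list, with 1 of 9 (11.1%) called in each mutant. Of all gene names, 11.5% were called in Schmid and 2.73% in Cog. Nfe2l2, the gene of NRF2, had log2 signals of 14.87, 14.33 and 14.54 in Schmid against 14.24, 13.09 and 12.82 in wildtype (Schmid), which did not overlap. Its log2 difference was 1.20 (SE 0.45, adjusted p = 0.076), not called, although 5 of 25 alternatives called it. In Cog it was 0.36 (adjusted p = 0.69). Keap1 gave 0.51 (adjusted p = 0.38) and 0.37 (adjusted p = 0.65), in the same order. NRF2 is known to be regulated mainly at the level of its protein, which these arrays do not measure. Bach1, the heme-sensing repressor, was called lower in Schmid at a log2 difference of -1.30 (adjusted p = 0.046), with 12.21, 13.23 and 13.02 against 13.78, 14.48 and 14.10. That call was lost in 11 of 25 alternatives, among them the replicate block (adjusted p = 0.051), with the highest adjusted p, 0.16, without Schmid replicate 1. In Cog, Bach1 gave -0.061 (adjusted p = 0.95). Nfe2l1, which codes for a related factor anchored in the ER membrane and known for inducing proteasome genes, rose in Cog by 1.10 (SE 0.15, adjusted p = 0.006), from 16.18, 16.16 and 16.38 to 17.27, 17.27 and 17.48. In Schmid it gave -0.12 (adjusted p = 0.59), and the difference between the mutants was -1.22 (adjusted p = 0.0049). The Cog call of Nfe2l1 was lost in 4 of 25 alternatives (adjusted p up to 0.32) and the difference in 4 of 24 (adjusted p up to 0.25), in both cases with the 75th percentile scalings and with the trends removed.

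The genes that supply glutathione's cysteine, make glutathione or break it down were the role with the most calls shared by the mutants. In each mutant 3 of 5 were called higher, against 5.8% of all gene names in Schmid and 1.89% in Cog. None of the 3 differed between the mutants by the same rule. Slc7a11, the cystine carrier, had log2 signals of 11.51, 11.84 and 11.54 in Schmid and 11.76, 12.02 and 11.10 in Cog. Its wildtype arrays gave 9.02, 8.56 and 9.07 (Schmid) and 8.73, 9.60 and 8.81 (Cog), near background, and it was well above background on 0 of 3 and 1 of 3 of them. At this brightest probe, the Schmid mean was therefore at least 4.36-fold above that of its wildtype (log2 difference as measured 2.75, adjusted p = 0.00027). For that bound, wildtype signals were raised to the lowest signal well above background on their arrays, and it does not cover the other probes of Slc7a11. In Cog the log2 difference as measured was 2.58 (adjusted p = 0.0022). The call held in all 25 alternatives in both mutants, but the size did not: with the processed signal at the 75th percentile it was 5.75 in Schmid and 4.84 in Cog, and with the mean over the probes of the gene 1.64 and 1.08. Its 3 dimmer probes were called in Schmid at 2 of them and in Cog at none.

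Slc3a2, the partner chain of that carrier, rose by 1.62 in Schmid (SE 0.15, adjusted p = 0.00017) and by 1.17 in Cog (SE 0.15, adjusted p = 0.0048). Chac1, an enzyme that cleaves glutathione and is induced through ATF4, rose by 2.35 in Schmid (SE 0.39, adjusted p = 0.0025) and by 1.93 in Cog (SE 0.39, adjusted p = 0.024). All 3 mutant arrays lay above all 3 wildtype arrays for each of these genes in each mutant. The Cog calls of Slc3a2 and Chac1 were lost in 3 and 6 of 25 alternatives (adjusted p up to 0.23 and 0.15), those of Chac1 including the fits without Cog replicate 1 or 3 or wildtype (Cog) replicate 1 or 2. With the mean over its 2 probes, Slc3a2 was called in neither mutant, at 0.99 in Schmid and 0.63 in Cog. The other members of this role, Gss and Ggt1, were not called.

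In Schmid, 2 of 6 glutathione peroxidases, 2 of 16 transferases and glutaredoxins and 2 of 9 genes of the thioredoxin system were called, beside 11.5% of all gene names. In Cog, limma called 0 of each, beside 2.73%, while 2, 3 and 4 of them had an unadjusted p of 0.05 or less. The share of all gene names at that unadjusted limit was not computed, so these last counts cannot be set against the array. The difference between the mutants was itself called for 3 of the genes called in Schmid, Gsto1, Srxn1 and Txnip. Gsto1, a transferase of the omega class that can also act as a reductase, had log2 signals of 15.52, 15.23 and 15.59 in Schmid against 12.96, 11.94 and 11.75 in wildtype (Schmid). The rise of Gsto1 was 3.23 (SE 0.39, adjusted p = 0.00053). In Cog its values of 13.19, 13.73 and 12.16 overlapped the wildtype values of 12.58, 12.32 and 12.62, with a log2 difference of 0.52 (adjusted p = 0.49), and the difference between the mutants was 2.72 (adjusted p = 0.0096). Srxn1, whose enzyme repairs overoxidized peroxiredoxins, rose by 1.94 in Schmid (SE 0.23, adjusted p = 0.0005) and gave 0.63 in Cog (adjusted p = 0.15), and its 3 probes were all called in Schmid. Its difference between the mutants was 1.31 (adjusted p = 0.023), lost without Schmid replicate 1 or 3 or wildtype (Schmid) replicate 3. Of the 6 glutathione peroxidases 2 were called in Schmid, named here after their values were seen. Gpx4, which reduces lipid peroxides, rose by 1.15 (adjusted p = 0.0005), and Gpx3, a secreted form, by 1.47 (adjusted p = 0.023). The other 4 peroxidases had negative log2 differences in Schmid, none of them called, and the median of the 6 was -0.33. For 2 of the 6, all Schmid arrays lay below all wildtype (Schmid) arrays, as for 27.7% of all gene names. The call of Gpx4 was lost with the processed signal at the 75th percentile (adjusted p = 0.12). That of Gpx3 was lost in 5 of 25 alternatives (adjusted p up to 0.078), among them those without Schmid replicate 1 or 2 or wildtype (Schmid) replicate 2 or 3.

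Of the 5 genes that fell in Schmid, 3 reduce carbonyls or quinones. Cbr3, a carbonyl reductase, had log2 signals of 12.86, 13.09 and 12.80 in Schmid against 15.51, 15.64 and 15.17 in wildtype (Schmid), and fell by 2.52 (SE 0.24, adjusted p = 0.0002). In Cog it gave -0.86 (adjusted p = 0.075), all 3 arrays below wildtype. Cbr1, its close relative, fell by 1.36 in Schmid (adjusted p = 0.0017) and gave -0.52 in Cog (adjusted p = 0.19). Nqo2, a relative of Nqo1 named here after its values were seen, fell by 1.25 in Schmid (adjusted p = 0.022), a call lost in 4 of 25 alternatives, those without Schmid replicate 1 or 3 or wildtype (Schmid) replicate 2 or 3 (adjusted p up to 0.083). Of the 6 genes with this role, 3 were called lower and 2 higher in Schmid, against 5.75% and 5.8% of all gene names. The 2 called higher were Ephx1, an epoxide hydrolase, and Abcc1, an exporter of glutathione conjugates. The call of Abcc1 was lost with the mean over its probes.

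Prdx2, a peroxiredoxin that is abundant in red cells, fell by 1.44 in Schmid (SE 0.15, adjusted p = 0.0003). Its log2 signal was 14.71, 15.22 and 14.92 against 16.37, 16.65 and 16.15. In Cog the log2 difference was -0.69 (adjusted p = 0.033), under 2-fold, with 15.38, 15.44 and 15.39 against 16.06, 16.11 and 16.11. All 3 Prdx2 probes were called in Schmid. The 3 red cell markers named above fell in Schmid as well, and their part in the value of Prdx2 was not tested. None of the 3 genes of superoxide dismutation and none of the 5 of heme and iron was called in either mutant. Of all gene names, 11.5% were called in Schmid and 2.73% in Cog.

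**Figure D5:**
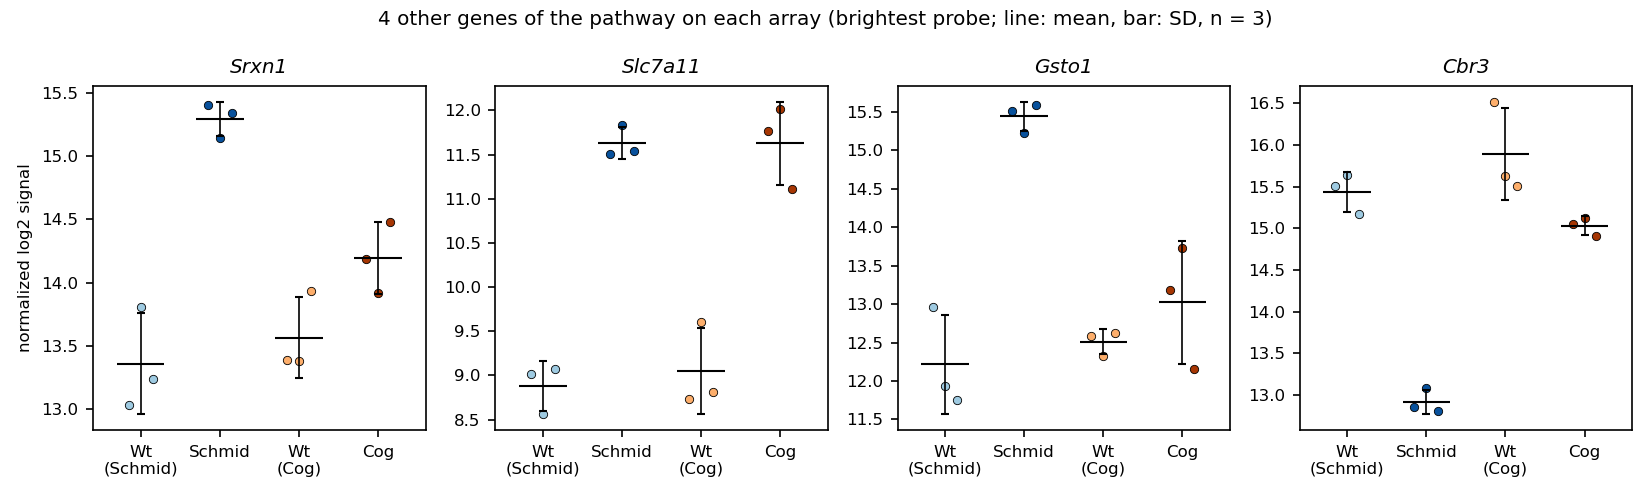
Normalized log2 signal (vertical axis, its range set for each gene) of Srxn1, Slc7a11, Gsto1 and Cbr3 on each of the 12 arrays, 3 points per group, with the mean as a line and the SD as a bar. Slc7a11 is high in both mutants, whereas Srxn1 and Gsto1 are high and Cbr3 is low on the 3 Schmid arrays beyond all other arrays.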

How the data were processed

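RNA of 12 microdissected hypertrophic zones was labelled with Cy3 and hybridized to single-colour 44K whole mouse genome arrays. The authors deposited the scanner output of Agilent Feature Extraction 9.5.3, with the intensity and local background of 45018 spots per array and no normalization between arrays, and a series matrix of log2 values. Here, intensities of 43379 non-control spots were used after normexp correction (offset 50, fitted on all spots), removal of control spots and of spots marked as outliers, quantile normalization and averaging of spots per probe. The deposited log2 values correlated with these by at least 0.99987 per array and served as an alternative.

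Group means of the 12 arrays were fitted with limma (8 residual degrees of freedom) with Benjamini-Hochberg adjustment over 41174 probes, 33 of which lacked a value on some array. SE and intervals are those of this fit. A gene is represented by its probe of highest mean log2 signal over the arrays. Of the other pathway genes, those named are up to 4 with the largest change each way among the called in each mutant, with Nfe2l2 and Keap1, and for Hmox1 the 3 genes of most similar signal. Others were named after their values were seen. The members and lists were chosen with earlier results of these data known. Gene names are those of the array, with an older symbol used for 2 pathway genes, and positions come from RefSeq (GRCm38.p6). Probes were not aligned again. The files hold no columns of other samples. R 4.3.3 and limma 3.58.1 were used, and scripts were tested on simulated data.

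The labels number the mice of each group without saying that a number marks a litter or day. After group means were removed, arrays of Schmid and wildtype mice with the same number correlated by 0.193, 0.171 and 0.066 (all probes) and by 0.306, 0.283 and 0.117 (the 12807 probes that every array put well above background). Between Cog and its wildtype the values over those probes were -0.209, 0.153 and -0.201. Between the wildtype groups they were 0.505, 0.115 and 0.274, although arrays of different numbers reached 0.46 there. On the brighter probes, arrays of the same number thus correlated positively between Schmid and its wildtype and between the wildtype groups. Same-numbered arrays were not always the most alike: Schmid replicate 3 correlated by 0.148 with wildtype (Schmid) replicate 2. Over all probes the same-number values fell as low as 0.066 and 0.046 in these comparisons. Between Cog and its wildtype the signs were mixed. The fit has no block, and a fit with one was an alternative. Precision is limited by the number of arrays. Other alternatives were the signal and its scaling, array weights, slide as a random block (correlation of -0.122), a filter on dim probes that kept 24331, trends over rows, each array left out, each pair of groups alone, the mean over the probes of a gene and no fold limit. With no fold limit a call cannot be lost. Leaving out an array of the other mutant's comparison changes the shared spread but not a mutant's own log2 difference.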

Additional observations from a re-analysis of the deposited data

Results flagged for a closer look

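The test of the difference between the mutants' effects called 2 of the 10 members and 9 of the 70 others, 11 genes in all. That is 12.9% of the others, near the 11.4% of all gene names that were called. Values given here are the log2 effect in Schmid minus that in Cog. Among the members the called genes were Hmox1 at 1.16 (adjusted p = 0.042) and Nqo1 at 1.23 (adjusted p = 0.011). The Nqo1 effects had opposite signs, but the effect in Schmid was not past the test (0.35, adjusted p = 0.18). For Nqo1 the wildtype groups themselves lay 0.76 apart (adjusted p = 0.086).

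Among the other pathway genes the effect was larger in Schmid for Gsto1 by 2.72 (adjusted p = 0.0096), Me1, a source of NADPH, by 2.24 (adjusted p = 0.036), Txnip, the inhibitor of thioredoxin, by 1.86 (adjusted p = 0.038), and Abcc1 by 1.79 (adjusted p = 0.021). It was also larger for G6pdx, the first enzyme of the pentose phosphate pathway, by 1.44 (adjusted p = 0.0052), Srxn1 by 1.31 (adjusted p = 0.023) and Glrx, a glutaredoxin, by 1.12 (adjusted p = 0.041). The effect was lower in Schmid for Cbr3, at -1.66 (adjusted p = 0.01), and for Nfe2l1, at -1.22 (adjusted p = 0.0049). The calls of Me1, Txnip and Glrx were lost in 13, 12 and 15 of 24 alternatives, those of Hmox1 in 10, Nfe2l1 in 4, Srxn1 and Abcc1 in 3 each, and Nqo1 and G6pdx in 1 each. Those of Gsto1 and Cbr3 were lost in none. Dixon's rule for a single outlying array applies to groups of 4 or more and was not run on groups of 3.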

How the results depend on the processing

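Counts of called genes are given first. In Schmid 1 of the 10 genes was called, and 2 with normexp values at the 75th percentile, with the trend over the rows removed, with the trends over rows and probe GC content removed (an alternative chosen after seeing the data), or with no fold limit. Leaving out single arrays gave 1 to 2, with Txnrd1 added without Schmid replicate 2 and Cat without wildtype (Schmid) replicate 1. In Cog the count of 1 fell to 0 with the processed signal or the normexp values at the 75th percentile and with only the Cog groups fitted, and was 2 with no fold limit and 0 to 1 with single arrays left out (0 without Cog replicate 3 or wildtype (Cog) replicate 1 or 2). The 2 differences between the mutants became 0 with the processed signal at the 75th percentile and 4 with array weights, and 1 to 3 with single arrays left out. Of the other pathway genes, the 17 called in Schmid became 27 with no fold limit and 14 to 23 with single arrays left out. The 4 called in Cog became 1 with the processed signal and 2 with normexp values at the 75th percentile (1 higher and 1 lower), 8 with array weights, 9 with slide as a random block, 7 with no fold limit and 3 to 7 with single arrays left out (7 without wildtype (Cog) replicate 1). With the replicate block, the counts were 1, 1 and 2 for the members and 19 and 6 for the other genes, and the calls lost were those of Bach1 in Schmid (adjusted p = 0.051) and Glrx between the mutants (adjusted p = 0.054). The cause of these moves was not tested.

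Scaling to the 75th percentile shifted the median of all gene names by -0.33 (processed signal) and -0.26 (normexp values) in Schmid and by 0.32 and 0.011 in Cog, and the median of the members was then 0.71 and 0.42 in Schmid and -0.24 and -0.13 in Cog. In Cog it was also below 0 with array weights (-0.051) and with the deposited values (-0.0017).

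Signs turned only for values that were not called. In the order processed signal, deposited values, normexp values at the 75th percentile, array weights, trend over rows and trends over rows and GC content, the difference between the mutants became 0.35, 0.11, 0.082, 0.078, 0.38 and 0.28 for Txn1. For Sod2 it became 0.20, 0.029, 0.20 and 0.21 with the processed signal, normexp values at the 75th percentile and the trends. For Gclm it was -0.34 (normexp values at the 75th percentile) and for Gsr -0.15 (array weights). In Schmid, Sod2 became 0.030 (deposited values), 0.27 and 0.28 (trends), Nfe2l1 0.11 and 0.014 (trends) and Txn1 0.11 (trend over rows). In Cog, Sod2 became -0.25 and -0.083 (75th percentiles) and Bach1 0.10 and 0.11 (trends). Between the wildtype groups, Txn1 became 0.073 (deposited values), 0.12 (array weights), 0.0073 (slide as a random block), 0.11 and 0.11 (trends), and Gsr 0.23 (mean over probes). With single arrays left out, ranges that crossed 0 were -0.021 to 0.59 for Gclc, -0.12 to 0.039 for Sod2 and -0.23 to 0.030 for Nfe2l1 in Schmid, and -0.45 to 0.011 for Txn1, -0.45 to 0.088 for Cat and -0.42 to 0.40 for Bach1 in Cog. Between the mutants they were -0.16 to 0.28 for Gsr and -0.21 to 0.28 for Txn1, and between the wildtype groups -0.20 to 0.29 for Txn1. Gclm had no value with dim probes left out.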
